A study of Mus musculus with 12 samples.

Results

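The 36 genes described here act in the unfolded protein response of the endoplasmic reticulum (ER) and in the integrated stress response. They were taken from a list of response genes, ER chaperones and targets of the transcription factor ATF4, matched by symbol to probe sets that the platform annotation gives to a single gene. Of the 36, 35 had such a probe set and were tested, among 12560 genes tested and 17097 symbols on the array. Mthfd2, a mitochondrial folate enzyme, was the exception. Its 2 probe sets carry the symbols Gsn and Mthfd2 together, with means in B6, Ts1Cje, B6 Trib1 and Ts1Cje Trib1 of 587, 577, 516 and 525 for one and 885, 955, 743 and 757 for the other.

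Proteins that enter the secretory pathway fold in the ER with the help of chaperones such as BiP and of disulfide isomerases. When unfolded protein accumulates, the membrane sensors IRE1, PERK and ATF6 raise the transcription of chaperones and of the machinery that returns faulty proteins to the cytosol for degradation. PERK shares its target, the translation initiation factor eIF2, with kinases that sense amino acid shortage, haem and viral RNA, and its phosphorylation lowers general translation while ATF4 is made. ATF4 then induces genes of amino acid synthesis, the factor CHOP and feedback genes that restore translation.

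Total RNA was hybridised to 12 Affymetrix mouse arrays, with 3 arrays in each of 4 groups. Hematopoietic cells came from wild-type mice, which the titles call B6, and from Ts1Cje mice, a Down syndrome model with an extra copy of a distal segment of chromosome 16. The other 2 groups were AML (acute myeloid leukaemia) lines expressing Trib1, named B6 + Trib1 WT and Ts1Cje + Trib1 WT in the titles and B6 Trib1 and Ts1Cje Trib1 here. Trib1, a pseudokinase, recruits a ubiquitin ligase that destroys C/EBP alpha. All cells were grown in IMDM with 10% serum and 5 ng/ml IL-3, had no treatment, and were profiled from 100 ng of RNA. The labels give neither ages nor the number of lines nor whether the 3 arrays in each group stand for different animals, lines or culture dishes. Each p-value below therefore reflects array-to-array spread alone, which could be technical. Trib1 and the leukaemic state went together in each comparison of lines with cells and cannot be told apart.

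Array medians lay between 30.5 and 32.0. Correlations across genes were 0.997 to 0.9991 within groups and 0.9146 to 0.9929 between groups. The upper quartile was 162 on Ts1Cje array 1 against 149 and 152 on the other arrays of its group, and 158 on B6 Trib1 array 3 against 152 and 150. The 8 measured general hematopoietic markers, which include Ptprc (CD45) and the IL-3 receptor chain Csf2rb, summed to 12388 to 12782 in B6, 12835 to 13399 in Ts1Cje, 13279 to 13366 in B6 Trib1 and 12078 to 13039 in Ts1Cje Trib1. The lowest intensity of any tested member was 59.6, for Atf3 on a Ts1Cje Trib1 array, so that each tested member was above the filter on dim probe sets on all 12 arrays.

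Promoter sequence was at hand for 32 of the 36 members, from RefSeq on GRCm38.p6, as windows of 250 bases before to 50 after the annotated start. Atf6, Aldh1l2, Manf and Hyou1 had no window. Searches on both strands covered the ER stress response element (CCAAT, any 9 bases, CCACG), its second form (ATTGG, any 1 base, CCACG), the XBP1 and ATF6 element TGACGTGG, and TGATGNAA, the core of the C/EBP-ATF element that ATF4 binds. The forms with CCACG share that block, and ATTGG is the reverse complement of CCAAT. The ER stress response element was found in 7 of 32 members (21.9%) and in 0.137% of 27025 genes, and its second form in Dnajb11 and Herpud1 (6.25%, against 0.0444%). The C/EBP-ATF core was found in Atf3, Chac1, Asns, Nupr1 and Herpud1 (15.6%, against 4.51%). TGACGTGG was in none of the 32 windows and in 0.714% of genes, which says only that these letters are not in the windows. The members were listed as genes of these responses and the motifs as elements of the same responses. A higher share among them is therefore no independent result, and the shares were not tested. A match describes the sequence and is no measurement of binding.

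The following stretches come from genes whose values are described below. These genes differed in several comparisons, except Calr and Canx, whose brightest probe sets passed in no comparison. Each stretch is written along the gene's strand, with the fixed bases of the motif in capitals. The C/EBP-ATF core comes first and then both forms of the ER stress response element.
Atf3 (chr1:191183416-191183463, minus strand): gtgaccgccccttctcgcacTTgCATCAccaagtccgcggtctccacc
Nupr1 (chr7:126625553-126625600, minus strand): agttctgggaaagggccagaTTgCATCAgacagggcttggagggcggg
Chac1 (chr2:119351029-119351076, plus strand): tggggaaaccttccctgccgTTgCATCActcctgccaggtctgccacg
Asns (chr6:7693210-7693252, minus strand): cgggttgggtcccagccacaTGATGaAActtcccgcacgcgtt
Herpud1 (chr8:94386297-94386344, plus strand): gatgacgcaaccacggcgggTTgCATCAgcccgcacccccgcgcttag
Herpud1, second form (chr8:94386357-94386407, plus strand): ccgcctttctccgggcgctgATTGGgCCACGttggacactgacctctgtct
Hspa5 (chr2:34772005-34772063, plus strand): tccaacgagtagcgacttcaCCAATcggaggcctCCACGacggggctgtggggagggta
Pdia6 (chr12:17266471-17266529, plus strand): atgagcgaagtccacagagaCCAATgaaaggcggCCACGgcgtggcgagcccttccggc
Dnajc3 (chr14:118937807-118937865, plus strand): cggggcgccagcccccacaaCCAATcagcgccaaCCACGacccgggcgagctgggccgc
Creld2 (chr15:88819500-88819558, plus strand): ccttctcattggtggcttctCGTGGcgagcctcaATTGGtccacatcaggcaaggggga
Calr (chr8:84847055-84847113, minus strand): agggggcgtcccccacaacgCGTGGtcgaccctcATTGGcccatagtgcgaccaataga
Canx (chr11:50325780-50325838, minus strand): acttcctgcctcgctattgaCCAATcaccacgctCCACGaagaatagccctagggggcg
Hsp90b1 held the ER stress response element at 2 places in its window. No stretch is shown for Hsp90b1 or for Dnajb11, whose match to the second form begins 7 bases after the annotated start.

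Differences are given on the log2(intensity + 15) scale, where the offset draws the differences of dim genes towards 0, and folds are on the same scale. Tests were made in limma on all 12 arrays, adjusted over the 12560 genes, and genes with an adjusted p below 0.05 passed. Intensities of different genes come from different probes and are not set against each other. Values after ± are standard deviations over n = 3 arrays.

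In outline, 15 of the 35 passed as higher in Ts1Cje than B6 cells and as lower in both lines than in cells of their background. Of all genes tested, 7.01% had this joint pattern. The 15 were Atf3, Atf5, Ddit3, Nupr1, Chac1, Hspa5, Dnajb9, Sdf2l1, Hyou1, Pdia4, Pdia6, Herpud1, Sel1l, Creld2 and Manf. With each array centred on the median of the genes kept, Hspa5, Dnajb9, Pdia6 and Manf no longer passed as lower in B6 Trib1. The share of all genes with the joint pattern was not computed on that scale. Comparisons of genotypes and of lines share arrays, so that a member with high values on the 3 Ts1Cje arrays is high against B6 and against the Ts1Cje Trib1 lines at once. Ppp1r15a had the opposite pattern, lower in Ts1Cje cells and higher in both lines.

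Between Ts1Cje and B6 cells, which compares the genotypes without Trib1, 18 members rose and 2 fell in limma, with a median difference of 0.14. Over all genes tested 23.3% were higher and 29.3% lower, with a median of 0.01. When each array was centred on the median of the genes kept, an alternative chosen after the data were seen, 25 members were higher and 1 lower, 5210 genes were higher and 2337 lower, and the median of all genes was 0.105. The members' direction was therefore the less common one on the deposited scale and the more common one on that scale. Neutrophil and monocyte markers mostly moved the same way: 11 of 11 neutrophil markers rose, from sums of 35312 to 35695 in B6 to sums of 51165 to 51713 in Ts1Cje, and 7 of 8 monocyte and macrophage markers rose, from 6310 to 6434 up to 10278 to 10407. Of 6 measured B cell markers 5 fell, from 4192 to 4393 down to 1518 to 1692, and of 5 measured plasma cell markers 3 fell and 1 rose, with sums of 1472 to 1603 and of 1272 to 1322. Mast cell and basophil markers rose in 4 of 7 cases and fell in 1, and eosinophil markers rose in 2 of 4. Megakaryocyte markers rose in 1 of 6 cases and fell in 5, and T and NK cell markers rose in 2 of 7 and fell in 4. Of 3 erythroid and 3 stromal markers, 1 of each fell. The part of these cell types in the members' differences was not tested, and in bulk RNA a change in the share of a cell type and a change of RNA per cell cannot be told apart.

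**Figure D1:**
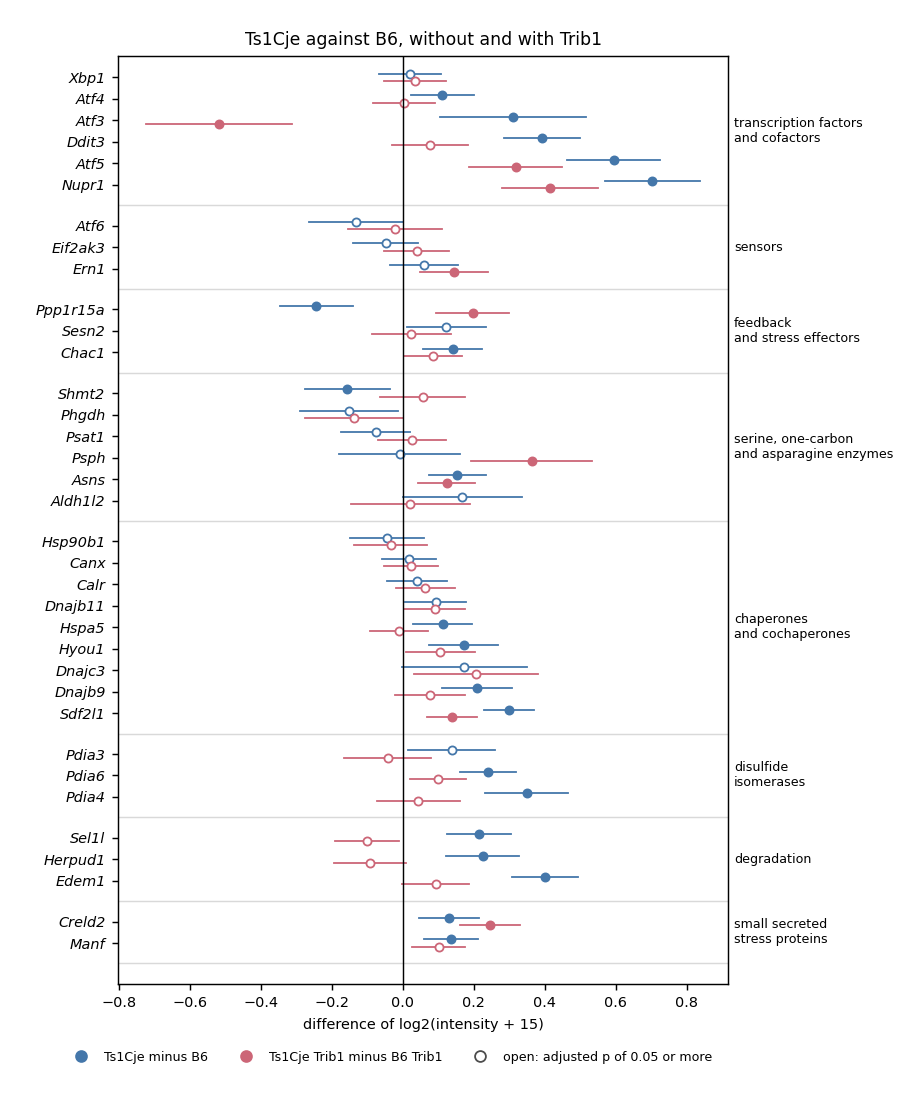
Genotype differences of the 35 tested members, grouped by role; the x axis is the difference of log2(intensity + 15), points are limma estimates, lines are 95% intervals, blue is Ts1Cje minus B6, red is Ts1Cje Trib1 minus B6 Trib1, and open points did not pass. Most blue points lie right of 0 (18 rose and 2 fell), whereas most red points are open (8 rose and 1 fell) and Atf3 lies at -0.52 in the lines.

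Between the Ts1Cje Trib1 and B6 Trib1 lines, the same genotype comparison in leukaemic cells, 8 members rose and 1 fell, with a median of 0.06. Of all genes 11.9% were higher and 9.63% lower. With centring on the genes kept 5 members were higher, without Asns, Ern1 and Sdf2l1 (adjusted p = 0.191, 0.142 and 0.0589), and 1 was lower. The 8 were Atf5, Nupr1, Psph, Creld2, Ppp1r15a, Ern1, Sdf2l1 and Asns, and the member that fell was Atf3. Here all 11 neutrophil markers fell, from sums of 29824 to 30184 down to 17077 to 17762, and 7 of 8 monocyte and macrophage markers fell, from 2979 to 2994 down to 1179 to 1278. The part of these cell types was not tested.

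The interaction, which is the genotype difference between lines minus that between cells, passed for 13 members, 3 higher and 10 lower, with a median of -0.06. Of all genes 28.4% had a higher and 20.2% a lower value, or 3572 and 2538 genes, and these became 2224 and 4042 with centring on the genes kept. The 10 members with a lower genotype difference in the lines were Atf3, Atf5, Ddit3, Nupr1, Pdia4, Pdia6, Edem1, Herpud1, Sel1l and Sdf2l1. Ppp1r15a, Psph and Shmt2 had a higher one. Without Ts1Cje Trib1 array 3 the count of higher members was 5, with Psat1 and Atf6 added and Shmt2 kept (differences of 0.16, 0.18 and 0.29).

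Between lines and cells of the B6 background 5 members rose and 23 fell, with a median of -0.19, and in the Ts1Cje background 5 rose and 25 fell, with a median of -0.23. Over all genes the shares were 34.1% higher and 31.1% lower in the B6 background and 34.1% higher and 26.8% lower in the Ts1Cje background, with medians of 0.03 and 0.02. Centred on the genes kept, 7 members were higher and 16 lower in the B6 background, where the count of all genes went from 4282 higher and 3911 lower to 6441 and 2680 and the median to 0.14. The 7 members that lost the call there were Hsp90b1 (-0.10), Atf6 (-0.08), Hspa5 (-0.07), Shmt2 (-0.05), Manf (-0.03), Dnajb9 (-0.02) and Pdia6 (0.02). In the Ts1Cje background 4 were then higher and 23 lower. B cell markers fell in 5 of 6 cases in both backgrounds and summed to 157 to 185 in B6 Trib1 and 165 to 183 in Ts1Cje Trib1. Of 5 plasma cell markers 1 rose and 3 fell in both backgrounds, with sums of 720 to 761 and 778 to 858, and Jchain, the joining chain of secreted antibodies, had means of 781, 491, 16.5 and 20.02 in B6, Ts1Cje, B6 Trib1 and Ts1Cje Trib1.

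Mast cell and basophil markers rose in 7 of 7 cases in both backgrounds, from sums of 2540 to 2589 in B6 and 4256 to 4498 in Ts1Cje to 18654 to 18988 and 21534 to 22303 in the lines. Megakaryocyte markers rose in 6 of 6 cases, from 7026 to 7309 and 6118 to 6330 up to 13920 to 14231 and 11747 to 12400. Neutrophil markers fell in 9 of 11 cases in the B6 and 11 of 11 in the Ts1Cje background, and monocyte and macrophage markers in 6 and 8 of 8. Of 7 T and NK cell markers 3 rose and 4 fell in both backgrounds. Bcl11b, a T cell factor, fell by 1.89 in B6 Trib1 against B6, while Gzmb, a granzyme that made up most of the sums in the lines, had means of 392, 602, 6955 and 7613 in the 4 groups. The sums went from 1599 to 1698 in B6 and 1672 to 1721 in Ts1Cje to 8921 to 9179 and 10015 to 10509. Eosinophil markers summed to 392 to 433, 802 to 908, 1246 to 1329 and 514 to 522, with 2 of 4 higher in B6 Trib1 against B6 and 1 higher and 2 lower in Ts1Cje Trib1 against Ts1Cje. Erythroid markers summed to 1068 to 1118, 520 to 570, 1665 to 1814 and 2030 to 2119, with 3 and 2 of 3 higher. Of 3 stromal markers 1 rose (Pdgfrb, by 1.04 and 0.66) and 1 fell (Sparc, by 2.52 and 1.62) in the B6 and Ts1Cje backgrounds, and the sums were 387 to 429, 213 to 247, 172 to 188 and 132 to 150. The lines and the cells thus differed in the markers of several cell types, whose part in the members' differences was not tested.

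**Figure D2:**
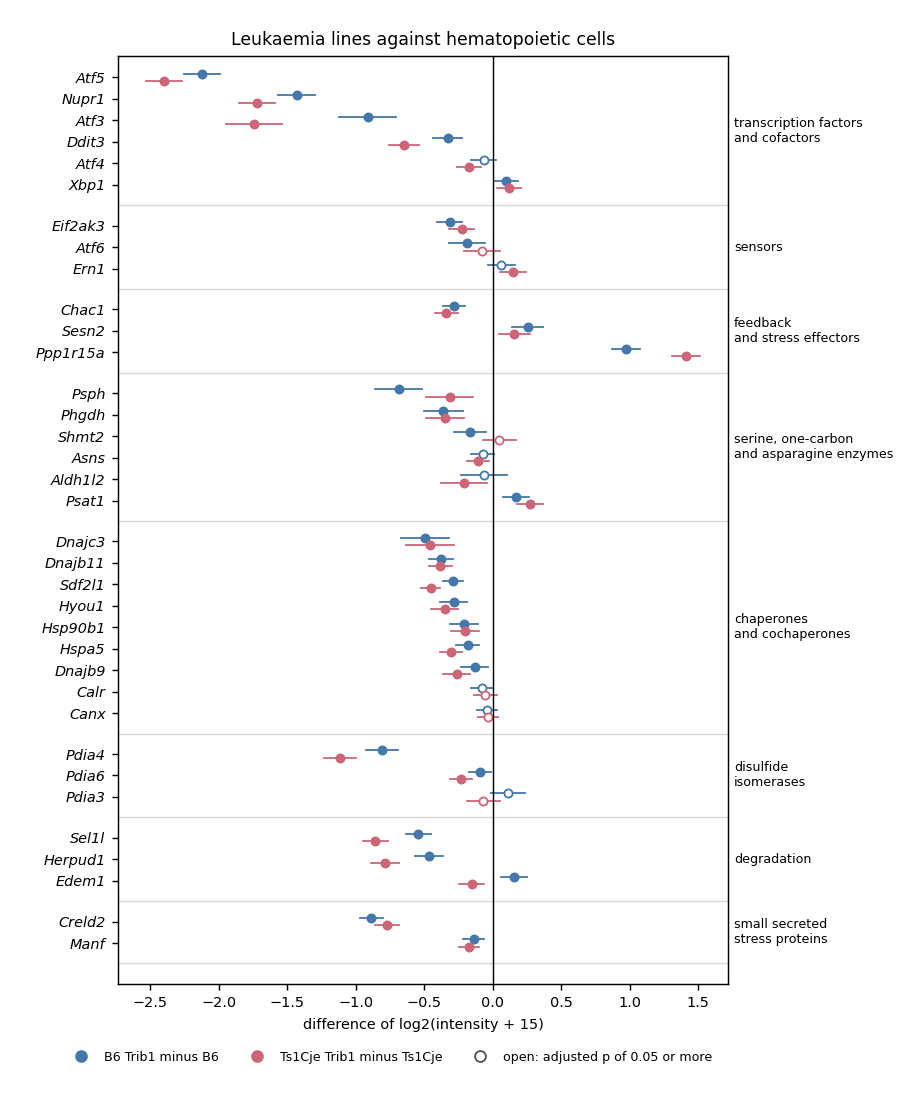
Differences between leukaemia lines and hematopoietic cells for the 35 tested members, grouped by role; the x axis is the difference of log2(intensity + 15), points are limma estimates, lines are 95% intervals, blue is B6 Trib1 minus B6, red is Ts1Cje Trib1 minus Ts1Cje, and open points did not pass. Atf5, Nupr1 and Atf3 lie farthest left and Ppp1r15a farthest right in both backgrounds.

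Among the transcription factors and cofactors, 5 of 6 rose in Ts1Cje against B6 cells, where 23.3% of all genes rose. Atf5, Nupr1, Atf3 and Ddit3 fell in both lines. Atf5, a factor of the ATF4 family that is itself translated under stress, had intensities of 633, 675 and 611 in B6, 908, 971 and 1043 in Ts1Cje, 137, 126 and 143 in B6 Trib1 and 182, 164 and 171 in Ts1Cje Trib1. The 4 groups did not overlap, and the order was Ts1Cje, B6, Ts1Cje Trib1, B6 Trib1. Atf5 rose by 0.59 in Ts1Cje cells (adjusted p = 3.88e-06) and by 0.32 in Ts1Cje lines (adjusted p = 0.00194), and was 4.36-fold lower in B6 Trib1 than in B6 (-2.12 ± 0.061 SE, adjusted p = 3.03e-12) and 5.28-fold lower in Ts1Cje Trib1 than in Ts1Cje (-2.40, adjusted p = 4.42e-13).

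Nupr1, a small chromatin cofactor induced by stress, had intensities of 375, 395 and 405 in B6, 705, 610 and 629 in Ts1Cje, 142, 124 and 142 in B6 Trib1 and 182, 195 and 180 in Ts1Cje Trib1. Its groups did not overlap and stood in the same order as those of Atf5. It rose by 0.70 in Ts1Cje cells (adjusted p = 1.09e-06) and by 0.41 in Ts1Cje lines (adjusted p = 0.000304), and was 2.7-fold lower in B6 Trib1 than in B6 (-1.43) and 3.3-fold lower in Ts1Cje Trib1 than in Ts1Cje (-1.72). The genotype difference in lines was below that in cells by 0.29 (adjusted p = 0.0163). That call was lost without Ts1Cje array 1 and B6 Trib1 array 3 together (-0.20, adjusted p = 0.0536) and with median centring (adjusted p = 0.0638). A further Nupr1 probe set gave 0.81, 0.24, -1.04 and -1.62 for the same 4 comparisons and -0.58 for the interaction.

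Ddit3 encodes CHOP, a factor that ATF4 induces and that promotes death of stressed cells. Its intensities were 236, 271 and 257 in B6, 338, 341 and 338 in Ts1Cje, 200, 188 and 211 in B6 Trib1 and 210, 210 and 213 in Ts1Cje Trib1. The Ts1Cje cells stood above the other groups, B6 cells came next, and the 2 kinds of line overlapped. Ddit3 rose by 0.39 in Ts1Cje cells (adjusted p = 2.47e-05) and fell by 0.33 and 0.65 in the B6 and Ts1Cje lines. The genotype difference between lines was 0.08 (95% interval -0.03 to 0.18), which was below that between cells by 0.32 (adjusted p = 0.0024).

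Atf3, a factor induced early by many stresses, had genotype differences of opposite sign in cells and in lines, and both passed. Its intensities were 179, 199 and 224 in B6, 279, 217 and 262 in Ts1Cje, 105, 88.2 and 105 in B6 Trib1 and 65.3, 69.6 and 59.6 in Ts1Cje Trib1. The B6 and Ts1Cje cells overlapped, the lines lay below both, and the Ts1Cje Trib1 lines lay below the B6 Trib1 lines without overlap. Atf3 rose by 0.31 in Ts1Cje cells (adjusted p = 0.015) and fell by 0.52 in Ts1Cje lines (adjusted p = 0.00145), and the interaction was -0.83 (adjusted p = 0.000248). It was 1.88-fold lower in B6 Trib1 than in B6 and 3.34-fold lower in Ts1Cje Trib1 than in Ts1Cje. The rise in cells no longer passed when B6 array 1, Ts1Cje array 1 or Ts1Cje array 3 was left out (0.24, 0.24 and 0.28 for Atf3, adjusted p = 0.0712, 0.0529 and 0.053).

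Atf4 itself, whose protein is controlled mainly by translation, changed little. Its intensities were 2745, 2743 and 2599 in B6, 2840, 2881 and 3015 in Ts1Cje, 2604, 2625 and 2492 in B6 Trib1 and 2620, 2624 and 2494 in Ts1Cje Trib1. The Ts1Cje cells lay above the other groups, which overlapped. Atf4 rose by 0.11 in Ts1Cje cells (adjusted p = 0.0368) and fell by 0.17 in Ts1Cje lines against Ts1Cje cells (adjusted p = 0.00213). Differences of -0.07 between B6 Trib1 and B6 (95% interval -0.15 to 0.02) and of 0.00 between the lines (-0.09 to 0.09) did not pass. The rise did not pass when B6 array 2 or 3 or Ts1Cje array 2 or 3 was left out (0.12, 0.08, 0.12 and 0.09, adjusted p = 0.0515, 0.145, 0.0596 and 0.137) and with quantile normalization (0.08, adjusted p = 0.109).

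Xbp1, whose transcript is spliced by IRE1 to give an active factor, was the only factor of the 6 that rose in the lines. Its intensities were 3468, 3368 and 3413 in B6, 3322, 3542 and 3529 in Ts1Cje, 3599, 3769 and 3625 in B6 Trib1 and 3654, 3706 and 3907 in Ts1Cje Trib1. Lines lay above the cells of their background without overlap, and the genotypes overlapped. The differences were 0.10 (adjusted p = 0.0431) and 0.12 (adjusted p = 0.0234). Whether the probe sets separate spliced from unspliced transcript is not given in the sources used here.

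The 4 Xbp1 probe sets did not move equally. A further one rose by 0.35 and 0.31 in the lines, another by 0.11 and 0.19, and a dimmer one differed by 0.00 and -0.02, which did not pass. For the brightest one, described above, the B6 call was lost without any one of the 3 B6 arrays (0.11, 0.09 and 0.10 for Xbp1, adjusted p = 0.0593, 0.116 and 0.0917), any one of the 3 B6 Trib1 arrays (0.11, 0.08 and 0.11, adjusted p = 0.0548, 0.147 and 0.0581) or Ts1Cje Trib1 array 2 (0.10, adjusted p = 0.0542). The Ts1Cje call was lost without Ts1Cje array 1 or Ts1Cje Trib1 array 3 (0.09 in both cases, adjusted p = 0.0929 and 0.0921).

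**Figure D3:**
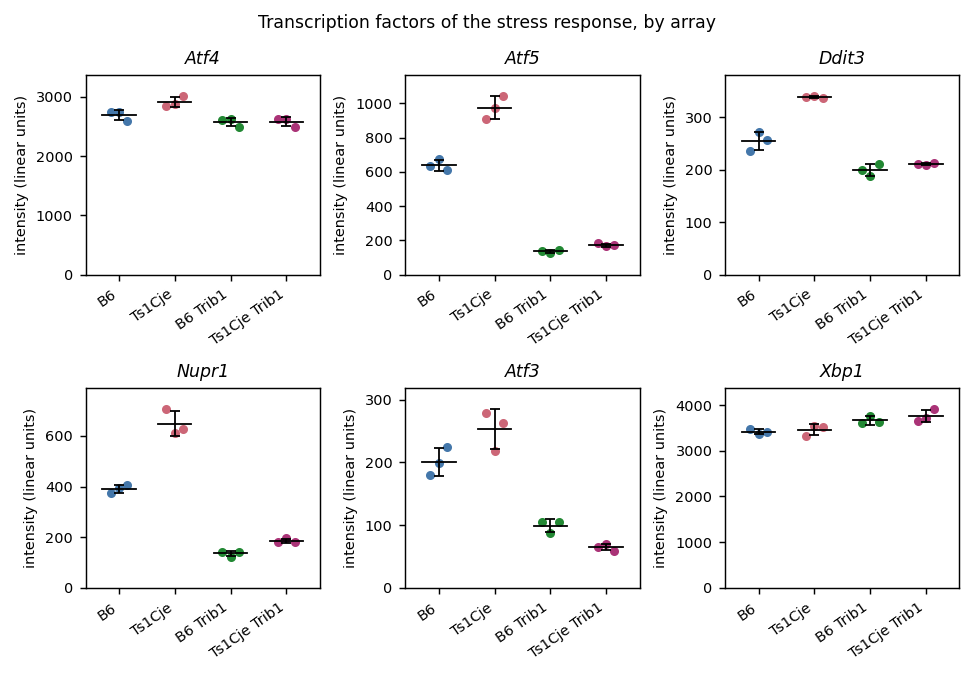
Intensity (linear units, y axis from 0) of the 6 transcription factors and cofactors on each array; points are arrays, bars are the mean and standard deviation of 3 arrays, and the x axis gives the groups. Atf5, Ddit3, Nupr1 and Atf3 have their highest mean in Ts1Cje cells and lower means in both lines, whereas Atf4 and Xbp1 differ by at most 0.17 on the log2 scale in any of the 4 pairwise comparisons.

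The 3 sensors differed little between genotypes. Eif2ak3, which encodes PERK, fell by 0.31 and 0.23 in the B6 and Ts1Cje lines (adjusted p = 2.39e-05 and 0.000339), from means of 324 ± 3.97 and 313 ± 12.9 to 258 ± 11.4 and 265 ± 6.44. Ern1, which encodes IRE1, rose by 0.15 in Ts1Cje Trib1 against Ts1Cje (adjusted p = 0.0099) and by 0.14 in Ts1Cje Trib1 against B6 Trib1 (adjusted p = 0.033), where it had a mean of 347 ± 6.65 against 311 ± 15.1 and 312 ± 15.5. With the mean of its probe sets these differences were 0.06 and 0.04, and neither passed. The call between lines was also lost without B6 Trib1 array 2 or any one of the 3 Ts1Cje Trib1 arrays (0.10, 0.15, 0.16 and 0.13 for Ern1, adjusted p = 0.147, 0.077, 0.0572 and 0.0936).

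Atf6, the sensor that is cut in the Golgi to release a transcription factor, had intensities of 183, 199 and 192 in B6, 186, 167 and 168 in Ts1Cje, 164, 170 and 165 in B6 Trib1 and 170, 175 and 146 in Ts1Cje Trib1. Of the 4 pairs of groups compared, only B6 and B6 Trib1 did not overlap. Atf6 fell by 0.19 between them (adjusted p = 0.0163), a call that was lost without B6 array 2 (-0.16, adjusted p = 0.064) and with quantile normalization (-0.08, adjusted p = 0.186). The differences of -0.13 in Ts1Cje cells (95% interval -0.26 to 0.00, adjusted p = 0.0836) and -0.08 in Ts1Cje lines against Ts1Cje cells (-0.21 to 0.05) did not pass. Without Ts1Cje array 1 or Ts1Cje Trib1 array 3 the difference of Atf6 in Ts1Cje cells passed (-0.18 and -0.13, adjusted p = 0.0266 and 0.0308).

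The feedback and effector genes went different ways. Ppp1r15a encodes GADD34, which brings a phosphatase to eIF2 and so restores translation. Its intensities were 141, 145 and 137 in B6, 121, 111 and 118 in Ts1Cje, 293, 305 and 276 in B6 Trib1 and 326, 329 and 353 in Ts1Cje Trib1. No groups overlapped, and both lines lay above both kinds of cells. Ppp1r15a was 1.96-fold higher in B6 Trib1 than in B6 (adjusted p = 6.74e-10) and 2.67-fold higher in Ts1Cje Trib1 than in Ts1Cje (adjusted p = 7.47e-12). It fell by 0.24 in Ts1Cje cells (adjusted p = 0.000795) and rose by 0.20 in Ts1Cje lines (adjusted p = 0.00857), and the interaction was 0.44 (adjusted p = 0.000139).

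Sesn2, a sestrin that restrains mTORC1, rose by 0.26 in B6 Trib1 against B6 and by 0.16 in Ts1Cje Trib1 against Ts1Cje (adjusted p = 0.00083 and 0.0179), with means of 122 ± 3.79, 135 ± 11.6, 149 ± 4.93 and 152 ± 4.19 in B6, Ts1Cje, B6 Trib1 and Ts1Cje Trib1. The call in the Ts1Cje background was lost without Ts1Cje array 2 or Ts1Cje Trib1 array 1 (0.11 and 0.14 for Sesn2, adjusted p = 0.091 and 0.0598). Chac1, a CHOP target that degrades glutathione, had means of 250 ± 4.72, 277 ± 10.9, 203 ± 4.11 and 216 ± 4.36. It rose by 0.14 in Ts1Cje cells and fell by 0.28 and 0.34 in the lines (adjusted p = 0.00762, 2.45e-05 and 3.1e-06).

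The enzymes of serine, one-carbon and asparagine metabolism showed no common direction. In Ts1Cje against B6 cells 1 of 6 rose (Asns) and 1 fell (Shmt2), in B6 Trib1 against B6 1 rose and 3 fell, and in Ts1Cje Trib1 against Ts1Cje 1 rose and 4 fell. In the same order, 23.3%, 34.1% and 34.1% of all genes rose, and 29.3%, 31.1% and 26.8% fell. Psph, which removes the phosphate in the last step of serine synthesis, had intensities of 348, 354 and 346 in B6, 393, 312 and 341 in Ts1Cje, 196, 204 and 236 in B6 Trib1 and 280, 291 and 258 in Ts1Cje Trib1. The cells of both genotypes overlapped, and the Ts1Cje lines lay between the cells and the B6 lines. Psph fell by 0.69 in B6 Trib1 against B6 and by 0.31 in Ts1Cje Trib1 against Ts1Cje (adjusted p = 5.43e-06 and 0.00334). It rose by 0.36 between the lines (adjusted p = 0.00473), and the interaction was 0.37 (adjusted p = 0.0152).

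Phgdh, which starts serine synthesis, fell by 0.36 and 0.34 in the lines (adjusted p = 0.000302 and 0.000353), from means of 1022 ± 11 and 920 ± 52.4 to 794 ± 19.5 and 723 ± 74.6. Psat1, the transaminase between them, rose by 0.17 and 0.27 (adjusted p = 0.00477 and 0.000113), from 1490 ± 2.45 and 1413 ± 37.4 to 1680 ± 15.6 and 1713 ± 110. The 3 enzymes of one short pathway thus did not share a direction. Their genotype differences in cells were -0.15, -0.08 and -0.01 for Phgdh, Psat1 and Psph (95% intervals -0.29 to -0.01, -0.17 to 0.02 and -0.18 to 0.16), and none passed. That of Phgdh passed without Ts1Cje array 1 or Ts1Cje Trib1 array 3 (-0.18 and -0.15, adjusted p = 0.0406 and 0.0106). A further Phgdh probe set fell by 0.12 in Ts1Cje cells and passed (adjusted p = 0.0449 over all kept probe sets). Both probe sets of Phgdh are of kinds that can match several transcripts.

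Asns, asparagine synthetase, had means of 1112 ± 21.7, 1239 ± 27.9, 1055 ± 27.2 and 1151 ± 33.1. It rose by 0.15 in Ts1Cje cells and by 0.12 in Ts1Cje lines (adjusted p = 0.00402 and 0.0319) and fell by 0.10 in Ts1Cje Trib1 against Ts1Cje (adjusted p = 0.027). The difference between lines was lost without B6 Trib1 array 1 or 3 or Ts1Cje Trib1 array 2 or 3 (0.13, 0.10, 0.10 and 0.12 for Asns, adjusted p = 0.068, 0.098, 0.124 and 0.0697). The fall was lost without Ts1Cje array 3 or Ts1Cje Trib1 array 1 (-0.09 and -0.08, adjusted p = 0.0984 and 0.111).

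Shmt2, which makes glycine from serine in mitochondria, had means of 715 ± 11.7, 640 ± 18.3, 636 ± 13.4 and 664 ± 60.7. It fell by 0.16 in Ts1Cje cells and by 0.17 in B6 Trib1 against B6, and the interaction was 0.21 (adjusted p = 0.0301, 0.0191 and 0.039). Leaving out single arrays ended each of these calls, and so did centring on the genes kept (-0.06, -0.05 and 0.10 in the same order). The difference in Ts1Cje cells was lost without B6 array 1 or 2 or Ts1Cje array 2 or 3 (-0.15, -0.15, -0.13 and -0.16, adjusted p = 0.0751, 0.0796, 0.1 and 0.0567), and that in B6 Trib1 without B6 array 1 or 2 or B6 Trib1 array 3 (-0.16, -0.16 and -0.15, adjusted p = 0.0512, 0.0542 and 0.0514). The interaction of Shmt2 was lost without any one of 9 arrays, which were all but Ts1Cje array 1, B6 Trib1 array 2 and Ts1Cje Trib1 array 3, with differences from 0.17 to 0.23. A further Shmt2 probe set gave -0.20, -0.21 and 0.21 for the same comparisons (adjusted p = 0.00648, 0.00322 and 0.0341 over all kept probe sets). The dimmest one gave -0.07, -0.06 and 0.10 and did not pass.

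Aldh1l2, a mitochondrial folate dehydrogenase, had means of 79.3 ± 7.96, 91.1 ± 11.8, 75.3 ± 3.76 and 76.6 ± 4.59. It fell by 0.21 in Ts1Cje Trib1 against Ts1Cje (adjusted p = 0.0324), although these groups overlapped. The call was lost without Ts1Cje array 2, Ts1Cje Trib1 array 1 or Ts1Cje Trib1 array 2 (-0.12, -0.18 and -0.20 for Aldh1l2, adjusted p = 0.162, 0.108 and 0.0799). Its difference of 0.17 in Ts1Cje cells (adjusted p = 0.0838) passed without B6 array 3 or Ts1Cje array 3 (0.23 and 0.24, adjusted p = 0.0421 and 0.0275).

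Among the 9 chaperones and cochaperones, 4 rose in Ts1Cje cells and 7 fell in each line. Of all genes tested, 23.3% rose in Ts1Cje cells, and 31.1% and 26.8% fell in the B6 and Ts1Cje lines. Hspa5 encodes BiP, the main ER chaperone and the partner that holds the sensors inactive, and its window held the ER stress response element shown above. Its intensities were 3149, 2979 and 3079 in B6, 3225, 3355 and 3375 in Ts1Cje, 2735, 2685 and 2681 in B6 Trib1 and 2589, 2701 and 2756 in Ts1Cje Trib1. The Ts1Cje cells lay above the B6 cells and both above the lines, which overlapped.

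Hspa5 rose by 0.11 in Ts1Cje cells (adjusted p = 0.0252) and fell by 0.18 and 0.31 in the B6 and Ts1Cje lines (adjusted p = 0.000968 and 8.75e-06). The rise was lost without B6 array 2 or 3 or Ts1Cje array 2 or 3 (0.09, 0.11, 0.10 and 0.10 for Hspa5, adjusted p = 0.0992, 0.0562, 0.0715 and 0.0808). The rise was also lost with quantile normalization, with median centring and with the mean of its probe sets. A further Hspa5 probe set gave 0.03 in Ts1Cje cells and -0.45 and -0.40 in the lines. The interaction of -0.12 did not pass (adjusted p = 0.0752), but did without Ts1Cje array 1 or Ts1Cje Trib1 array 3 (-0.14 in both cases, adjusted p = 0.044 and 0.0494).

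Sdf2l1, an ER cochaperone, had means of 1556 ± 16, 1918 ± 38.1, 1270 ± 13.6 and 1399 ± 16.2 in B6, Ts1Cje, B6 Trib1 and Ts1Cje Trib1. It rose by 0.30 in Ts1Cje cells and by 0.14 in Ts1Cje lines, fell by 0.29 and 0.45 in the lines, and had an interaction of -0.16 (adjusted p = 6.92e-06, 0.00793, 4.32e-06, 3.15e-08 and 0.0115). With median centring of the arrays the interaction of Sdf2l1 did not pass (adjusted p = 0.0834), and with centring on the genes kept the rise between the lines did not (adjusted p = 0.0589). Dnajb9, a cochaperone of BiP that restrains IRE1, rose by 0.21 in Ts1Cje cells (adjusted p = 0.00182), from 612 ± 7.36 to 711 ± 20.4, and fell to 558 ± 25.9 and 590 ± 30.1 in the lines, by 0.13 and 0.26 (adjusted p = 0.0225 and 0.000179). Its fall in B6 Trib1 was lost without B6 array 1 or B6 Trib1 array 1 or 2 (-0.12, -0.12 and -0.11 for Dnajb9, adjusted p = 0.0662, 0.0681 and 0.0902). Its interaction of -0.13 (adjusted p = 0.104) passed without Ts1Cje Trib1 array 3 (-0.17, adjusted p = 0.0317).

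Hyou1, the nucleotide exchange factor of BiP, rose by 0.17 in Ts1Cje cells and fell by 0.29 and 0.35 in the lines (adjusted p = 0.00632, 9.82e-05 and 1.12e-05), with means of 981 ± 44.7, 1107 ± 51.1, 802 ± 19.8 and 864 ± 16.4. Without probe sets that can match several transcripts, the values of Hyou1 were 0.20, which did not pass (adjusted p = 0.0555), and -0.63 and -0.87. A dim further probe set of Hyou1, with a B6 mean of 43, gave 0.33 in Ts1Cje cells and 0.09 and -0.06 in the lines, the last 2 not passing. Dnajb11, a cochaperone that delivers clients to BiP, fell by 0.38 in each line (adjusted p = 2.44e-06 and 1.63e-06), from 1350 ± 50.2 and 1440 ± 19.3 to 1035 ± 22.9 and 1103 ± 39.5. Dnajc3, a cochaperone that also inhibits PERK, fell by 0.49 and 0.46 (adjusted p = 0.000154 and 0.000229), from 1136 ± 67.6 and 1284 ± 97.5 to 804 ± 23.5 and 934 ± 125. By the brightest probe sets neither passed between genotypes (Dnajb11 0.09 in both settings, Dnajc3 0.17 in cells and 0.21 in lines). Of 4 further Dnajc3 probe sets 2 rose in Ts1Cje cells (0.23 and 0.12, adjusted p = 0.00504 and 0.0373 over all kept probe sets), the values between the lines were 0.11, -0.03, 0.00 and 0.00, and all 4 fell in both lines. The probe set described first passed in cells without Ts1Cje Trib1 array 3 (0.17, adjusted p = 0.0245) and in lines without Ts1Cje Trib1 array 1 (0.27, adjusted p = 0.0475).

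Sdf2l1 (chr16:17130138-17132383) and Dnajb11 (chr16:22857845-22879634, GRCm38.p6) were the members on chromosome 16, and both lie in its proximal part, away from the distal Ts1Cje segment.

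Hsp90b1, the ER form of HSP90, fell by 0.21 and 0.20 in the lines (adjusted p = 0.00184 and 0.00235), from 4143 ± 120 and 4017 ± 154 to 3580 ± 113 and 3498 ± 194. Its probe sets differed between genotypes. The brightest gave -0.04 in Ts1Cje cells (95% interval -0.15 to 0.06), a further one rose by 0.26 from 2565 to 3077, and their mean rose by 0.11 (adjusted p = 0.0126), so that no direction is given for Hsp90b1 in that comparison. The further probe set did not fall in B6 Trib1 (0.02) and fell by 0.16 in Ts1Cje Trib1 (adjusted p = 0.0032 over all kept probe sets).

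Calr and Canx, the lectin chaperones calreticulin and calnexin, passed in no comparison by their brightest probe sets, and their windows held the ER stress response element. Means of Calr were 3517 ± 103, 3614 ± 76.3, 3332 ± 89.6 and 3482 ± 96.3, and those of Canx 3248 ± 75.6, 3287 ± 36.4, 3156 ± 40 and 3208 ± 79.1. The 95% intervals reached from -0.16 to 0.15 over the 4 pairwise comparisons for Calr and from -0.12 to 0.10 for Canx, so that larger differences lay outside them. A further Calr probe set fell by 0.14 in B6 Trib1 against B6 and rose by 0.13 between the lines (adjusted p = 0.00893 and 0.0425 over all kept probe sets). For Calr, the difference of -0.08 between B6 Trib1 and B6 was -0.11 and passed with the mean of its probe sets (adjusted p = 0.0177), and its difference in Ts1Cje cells was 0.14 and passed with centring on the genes kept (adjusted p = 0.0343). The other 5 members with the element were Hspa5, Hsp90b1, Pdia6, Dnajc3 and Creld2, and they fell in both lines. Pdia6 and the further probe set of Hsp90b1 did not hold to this in B6 Trib1. With centring on the genes kept, Hspa5 and the brightest probe set of Hsp90b1 no longer passed there either (-0.07 and -0.10). Of all 35 tested members, 23 fell in the B6 and 25 in the Ts1Cje background, and a link of the element with the fall was not tested.

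**Figure D4:**
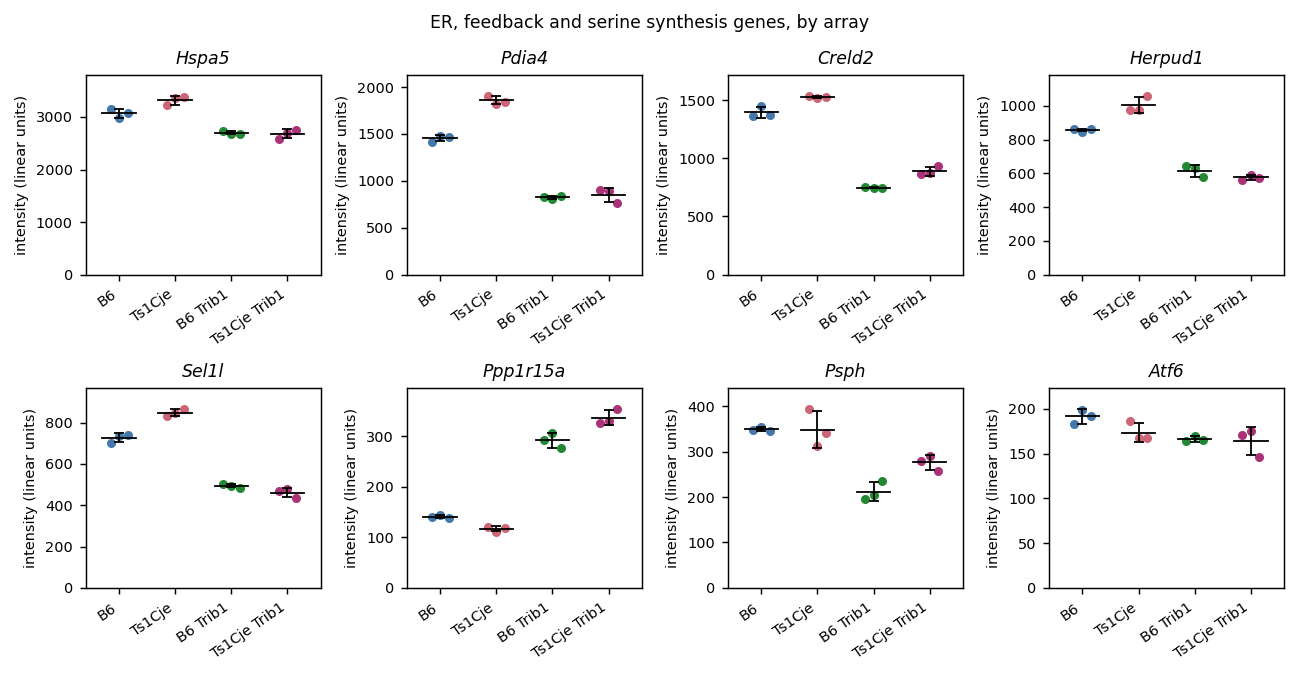
Intensity (linear units, y axis from 0) of 8 members on each array; points are arrays, bars are the mean and standard deviation of 3 arrays, and the x axis gives the groups. Pdia4, Creld2, Herpud1 and Sel1l are highest in Ts1Cje cells and lower in both lines, Ppp1r15a is higher in both lines than in both kinds of cells, and Hspa5 and Atf6 differ by at most 0.31 on the log2 scale in any pairwise comparison.

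Of the disulfide isomerases, Pdia4 and Pdia6 rose in Ts1Cje cells. Pdia4 had intensities of 1419, 1481 and 1464 in B6, 1905, 1824 and 1841 in Ts1Cje, 830, 806 and 838 in B6 Trib1 and 898, 893 and 766 in Ts1Cje Trib1. The Ts1Cje cells lay above the B6 cells, and the lines lay below both and overlapped. Pdia4 rose by 0.35 in Ts1Cje cells (adjusted p = 0.000144) and was 1.75-fold lower in B6 Trib1 than in B6 (-0.81, adjusted p = 2.12e-08) and 2.16-fold lower in Ts1Cje Trib1 than in Ts1Cje (-1.11, adjusted p = 4.51e-10). Between the lines its difference was 0.04 (95% interval -0.07 to 0.16), and the interaction was -0.31 (adjusted p = 0.00542).

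Pdia6 had means of 1963 ± 39.1, 2321 ± 77.8, 1842 ± 10 and 1975 ± 46.8. It rose by 0.24 in Ts1Cje cells (adjusted p = 0.000131) and fell by 0.23 in Ts1Cje Trib1 against Ts1Cje (adjusted p = 9e-05). Its fall of 0.09 in B6 Trib1 against B6 (adjusted p = 0.0453) was lost without any one of the 3 B6 arrays (-0.10, -0.10 and -0.07, adjusted p = 0.0754, 0.0588 and 0.149), any one of the 3 B6 Trib1 arrays (-0.09 in each case, adjusted p = 0.098, 0.076 and 0.0864), Ts1Cje array 2 or Ts1Cje Trib1 array 1 or 2 (adjusted p = 0.053, 0.0565 and 0.0547). The difference of Pdia6 was 0.02 with centring on the genes kept, so that its direction is not settled. The interaction of Pdia6, -0.14 (adjusted p = 0.0399), was lost without B6 array 1 or 2, Ts1Cje array 2 or 3, any one of the 3 B6 Trib1 arrays, or Ts1Cje Trib1 array 1 or 3, with differences from -0.15 to -0.11. Pdia3, which works with calnexin and calreticulin, was read by a dim probe set with means of 77.7 ± 0.546, 87 ± 5.37, 85.3 ± 4.84 and 82.4 ± 7.25 and did not pass. Its difference of 0.14 in Ts1Cje cells (adjusted p = 0.0573) passed without Ts1Cje array 1 or Ts1Cje Trib1 array 2 or 3 (0.18, 0.14 and 0.14, adjusted p = 0.0181, 0.0336 and 0.044). Its interaction of -0.18 (adjusted p = 0.0795) passed without Ts1Cje array 1, B6 Trib1 array 3 or Ts1Cje Trib1 array 2 (-0.22, -0.21 and -0.24, adjusted p = 0.028, 0.0474 and 0.0201).

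All 3 degradation genes rose in Ts1Cje cells, fell in Ts1Cje lines against Ts1Cje cells, and had a lower genotype difference in lines than in cells. The shares of all genes that did so were 23.3%, 26.8% and 20.2%, each taken alone. Herpud1, a membrane protein of the ubiquitin ligase complex of ER-associated degradation whose window held both motifs, had intensities of 863, 848 and 861 in B6, 976, 979 and 1059 in Ts1Cje, 643, 630 and 576 in B6 Trib1 and 563, 593 and 574 in Ts1Cje Trib1. The Ts1Cje cells lay above the B6 cells, and the lines lay below both and overlapped. Herpud1 rose by 0.22 in Ts1Cje cells (adjusted p = 0.00147), fell by 0.47 in B6 Trib1 against B6 and by 0.79 in Ts1Cje Trib1 against Ts1Cje (adjusted p = 1.46e-06 and 4.37e-09), and had an interaction of -0.32 (adjusted p = 0.00173). Its difference of -0.09 between the lines (adjusted p = 0.197) passed without B6 Trib1 array 3 (-0.14, adjusted p = 0.045).

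Sel1l, the adaptor of the same ligase complex, had intensities of 703, 737 and 742 in B6, 831, 845 and 864 in Ts1Cje, 503, 495 and 486 in B6 Trib1 and 470, 478 and 435 in Ts1Cje Trib1. No groups overlapped. Sel1l rose by 0.22 in Ts1Cje cells (adjusted p = 0.000815), was 1.46-fold lower in B6 Trib1 than in B6 (adjusted p = 9.24e-08) and 1.81-fold lower in Ts1Cje Trib1 than in Ts1Cje (adjusted p = 4.6e-10), and had an interaction of -0.32 (adjusted p = 0.000751). Of its 4 further probe sets, 3 fell in B6 Trib1 against B6 (-0.38, -0.76 and -0.22) and the dimmest, with means of 44.5 and 56.5, rose by 0.27.

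Edem1, which directs misfolded glycoproteins to degradation, had means of 904 ± 10.1, 1198 ± 55.4, 1008 ± 39.5 and 1075 ± 30.5. It rose by 0.40 in Ts1Cje cells and by 0.15 in B6 Trib1 against B6, and fell by 0.15 in Ts1Cje Trib1 against Ts1Cje (adjusted p = 6.8e-06, 0.00751 and 0.00717). The rise of Edem1 in B6 Trib1 did not pass with median centring (0.12, adjusted p = 0.065). The interaction was -0.31 (adjusted p = 0.00119), and the means of both lines lay between those of the B6 and the Ts1Cje cells. Between the lines its difference was 0.09 (95% interval 0.00 to 0.19), whereas a further probe set fell by 0.20 (adjusted p = 0.0043 over all kept probe sets).

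Creld2 and Manf, small ER proteins that are secreted under stress, rose in Ts1Cje cells and fell in both lines. Creld2 had intensities of 1360, 1447 and 1373 in B6, 1534, 1517 and 1529 in Ts1Cje, 751, 744 and 743 in B6 Trib1 and 864, 870 and 932 in Ts1Cje Trib1. No groups overlapped, and both genotype differences had the same sign. Creld2 rose by 0.13 in Ts1Cje cells and by 0.25 in Ts1Cje lines (adjusted p = 0.0131 and 0.000454) and was 1.85-fold lower in B6 Trib1 than in B6 (adjusted p = 2.64e-10) and 1.71-fold lower in Ts1Cje Trib1 than in Ts1Cje (adjusted p = 6.95e-10). The interaction of 0.12 (95% interval 0.00 to 0.24) did not pass, and the rise in cells was lost without B6 array 1 (0.11, adjusted p = 0.0545).

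Manf had means of 2672 ± 40.4, 2939 ± 82.8, 2427 ± 20.5 and 2604 ± 50.3, with differences of 0.14 in Ts1Cje cells and -0.14 and -0.17 in the lines (adjusted p = 0.0055, 0.00386 and 0.000659). Its difference of 0.10 between the lines did not pass (adjusted p = 0.0566), but did without Ts1Cje Trib1 array 3 (0.12, adjusted p = 0.0497).

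Counts of members that fell depended on single arrays where they were small. In Ts1Cje against B6 cells, Ppp1r15a alone was counted as lower without B6 array 1, B6 array 2, Ts1Cje array 2 or Ts1Cje array 3, and 4 members were without Ts1Cje array 1 or Ts1Cje Trib1 array 3. In the lines, 2 members in place of 1 were lower in Ts1Cje without B6 Trib1 array 3, the addition being Herpud1.

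Other genes of these pathways were followed in lists. Over all genes tested, 23.3% rose and 29.3% fell in Ts1Cje cells, and 11.9% rose and 9.63% fell between the lines. In lines against cells, 34.1% rose and 31.1% fell in the B6 and 34.1% rose and 26.8% fell in the Ts1Cje background. The counts of the lists below were not tested against these shares. Of 24 measured ATF4 and CHOP targets beside the members, 8 rose and 9 fell in Ts1Cje cells (median 0.05), 6 rose and 15 fell in B6 Trib1 against B6 (median -0.29), 5 rose and 10 fell in Ts1Cje Trib1 against Ts1Cje (median -0.06), and 5 rose and 1 fell between the lines (median 0.08). Trib3, a pseudokinase of the same family as Trib1 and a CHOP target, rose by 0.57 in Ts1Cje cells, from a mean of 153 to 235, and by 0.45 in Ts1Cje lines, from 85.3 to 122, and fell by 0.75 and 0.87 in the lines. Cebpb, a myeloid factor, fell by 1.28 in Ts1Cje Trib1 against Ts1Cje, from 2871 to 1173. Ero1a, the oxidase that recharges disulfide isomerases, is counted here and among the folding enzymes below, and rose by 0.69 in B6 Trib1 against B6, from 1469 to 2378.

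The list of cytosolic tRNA synthetases, many of which ATF4 induces, had 2 of 18 higher and 9 lower in Ts1Cje cells (median -0.11), 2 higher and 11 lower in B6 Trib1 against B6 (median -0.14), and 6 higher and 3 lower in Ts1Cje Trib1 against Ts1Cje (median -0.02). Vars, the valine enzyme, fell by 0.48 in Ts1Cje cells, from 585 to 417. Between the lines 1 rose and 0 fell in limma, with 3 and 0 at an unadjusted p under 0.05. In Ts1Cje cells the median of this list and that of the 6 transcription factors (0.35) thus had opposite signs, a difference that was not tested. The median of the 6 tested serine, one-carbon and asparagine enzymes among the members (-0.04) had the same sign as that of this list. It lies close to 0, and its sign may not hold with centring on the genes kept, where the median of all genes was 0.105. Medians of the lists were not computed on that scale. Of 14 measured eIF2 kinases and eIF2 and eIF2B subunits, 3 rose and 5 fell in Ts1Cje cells, 4 rose and 6 fell in B6 Trib1 against B6, and in Ts1Cje Trib1 against Ts1Cje 3 rose and 5 fell. Eif2b2 rose by 0.38 in Ts1Cje cells, and Gcn1, which activates the amino acid sensor kinase, fell by 0.46. Of 11 further serine, glycine and folate enzymes, 1 rose and 5 fell in Ts1Cje cells, 4 rose and 5 fell in B6 Trib1 against B6, and in Ts1Cje Trib1 against Ts1Cje 6 rose and 1 fell, where Tyms, thymidylate synthase, rose by 0.73, from 614 to 1030.1, and Mthfs, a folate salvage enzyme, fell from 512 to 246.

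Other ER folding, disulfide and glycosylation enzymes rose more often than they fell in both genotype comparisons. Of 32 measured, 15 rose and 2 fell in Ts1Cje cells (median 0.11), and 15 rose and 1 fell between the lines (median 0.12). In lines against cells 14 rose and 9 fell in the B6 background and 18 rose and 9 fell in the Ts1Cje background (medians 0.05 and 0.11), where 5 members rose and 23 and 25 fell. Ero1b, the sister oxidase of Ero1a, fell by 1.10 and 1.00 in the lines, and Wfs1, an ER calcium protein, fell by 1.45 in Ts1Cje Trib1 against Ts1Cje. Fkbp11, an ER prolyl isomerase, rose by 0.49 between the lines, from 138 to 200.3.

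Of 23 other genes of ER-associated degradation, 7 rose and 1 fell in Ts1Cje cells, 6 rose and 1 fell between the lines, 10 rose and 9 fell in B6 Trib1 against B6, and in Ts1Cje Trib1 against Ts1Cje 9 rose and 10 fell. Syvn1, the HRD1 ligase that Sel1l and Herpud1 serve, fell by 0.88 in B6 Trib1 against B6, from 899.9 to 483. Edem3, a relative of Edem1, rose by 0.87 and 1.08 in the lines, from 572 and 576 to 1055 and 1236. Of 20 translocon, signal peptidase and TRAP genes, 5 rose in Ts1Cje cells and 3 between the lines, with 0 lower in limma in both, and 0 lower at an unadjusted p under 0.05. In lines against cells, 6 rose and 5 fell and 7 rose and 4 fell in the B6 and Ts1Cje backgrounds, with Ssr4 up by 0.45 and 0.53.

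Of 15 other ER stress transducers, 4 rose and 6 fell in Ts1Cje cells, 3 rose and 1 fell between the lines, 6 rose and 3 fell in B6 Trib1 against B6, and in Ts1Cje Trib1 against Ts1Cje 8 rose and 4 fell. Casp12, a caspase linked to the ER, fell by 0.79 in Ts1Cje cells, from 107 to 55.5, and rose by 0.54 between the lines, from 150.2 to 225, with an interaction of 1.33 (adjusted p = 7.8e-09). The cell death gene Bak1 fell by 0.84 and 0.86 in the lines.

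For comparison, cytosolic heat shock genes answer a separate stress pathway. Of 16 measured, 2 rose and 10 fell in Ts1Cje cells (median -0.12), 5 rose and 7 fell in B6 Trib1 against B6, and in Ts1Cje Trib1 against Ts1Cje 6 rose and 3 fell. Mitochondrial chaperones and proteases had 2 of 12 higher and 4 lower in Ts1Cje cells (median -0.05), 3 higher and 8 lower in B6 Trib1 against B6, and 3 higher and 3 lower in Ts1Cje Trib1 against Ts1Cje. Between the lines 0 of either list passed in limma, with 4 of each higher and 0 lower at an unadjusted p under 0.05. The 35 tested members together (median 0.14) and the cytosolic heat shock genes therefore had medians of opposite sign in Ts1Cje cells, a difference that was not tested.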

How the data were processed

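Intensity values of 45141 probe sets on a linear scale were deposited by the authors, who used MAS5 per the submitters' processing notes. MAS5 uses mismatch probes, which these perfect-match arrays lack, so how values were summarised and scaled is not settled. The build is not given in the sources used here. Probe sets with 1 symbol (28898) that exceeded their array's 40th percentile on at least 3 of 12 arrays were kept, which left 20066. Each gene was represented by its kept probe set with the highest mean. log2(intensity + 15) was fitted with limma 3.58.1 (R 4.3.3), with a mean per group over 12 arrays, two-sided tests and Benjamini-Hochberg adjustment. No further scaling was applied. The number of arrays limits the precision. The fit was tested on simulated data. Figures used matplotlib 3.10.9 (Python 3.11.15).

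Members and lists were chosen with earlier results of these data known. Members with a passing pairwise difference of at least 0.5, and Atf4, Ddit3, Xbp1, Hspa5 and Atf6, are given by array, other members by group mean. From each pathway or marker list only genes with one of the 3 smallest adjusted p of a contrast are named, apart from Ptprc and Csf2rb as defining markers. Cell markers without a measured probe set of their own symbol were left out of the sums.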

Additional observations from a re-analysis of the deposited data

Results flagged for a closer look

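For 13 members the genotype difference (Ts1Cje minus B6, log2 scale) was not the same in lines and in cells by limma's interaction test. It was lower in the lines for Atf3 (-0.83), Ddit3 (-0.32), Herpud1 (-0.32), Sel1l (-0.32), Edem1 (-0.31), Pdia4 (-0.31), Nupr1 (-0.29), Atf5 (-0.28), Sdf2l1 (-0.16) and Pdia6 (-0.14), and higher for Ppp1r15a (0.44), Psph (0.37) and Shmt2 (0.21). The genotype differences in cells and in lines had opposite signs and both passed for Atf3 (0.31 and -0.52) and Ppp1r15a (-0.24 and 0.20). Of the 12560 genes 28.4% had a higher and 20.2% a lower interaction, so such differences were common on these arrays.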

How the results depend on the processing

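Each of 25 alternatives was set against the reported values. Of 100 passing differences of members, 73 passed under every alternative that tested the gene and 27 were lost under at least one. Phgdh was tested under 24 alternatives, as it drops out without probe sets that can match several transcripts. Hsp90b1 in Ts1Cje against B6 cells turned from -0.04 to 0.11 when its probe sets were averaged, and Pdia6 in B6 Trib1 against B6 from -0.09 to 0.020 with centring on the genes kept, which was added after the data were seen. That centring gave 1 member lower and 5210 genes higher and 2337 lower in Ts1Cje against B6 cells, 5 members higher between the lines, 6441 genes higher in B6 Trib1 against B6, and 2224 higher and 4042 lower in the interaction. Median centring left 3 members higher in B6 Trib1 against B6, and a fit to only the groups compared left 3 higher in Ts1Cje Trib1 against Ts1Cje. Without Ts1Cje array 1 and B6 Trib1 array 3 together, also added later, 4 members were lower in Ts1Cje cells and 2 between the lines. Leaving out 1 array at a time gave 16 to 20 members higher and 1 to 4 lower in Ts1Cje cells, 6 to 8 higher and 1 to 2 lower between the lines, 4 to 5 higher and 20 to 23 lower in B6 Trib1 against B6, 4 to 5 higher and 23 to 25 lower in Ts1Cje Trib1 against Ts1Cje, and 2 to 5 higher and 9 to 12 lower in the interaction. Over all genes these ranges were 2282 to 3328 and 3179 to 3871, 1061 to 1677 and 997 to 1301, 3586 to 4506 and 3546 to 4021, 3965 to 4319 and 3161 to 3396, and 3167 to 3846 and 2120 to 3004. Replicate numbers did not pair the arrays (same-numbered deviations correlated at -0.446 to 0.355, and 3 of 12 arrays were closest to their own number). With the replicate number as a block, 20, 6, 4, 5 and 3 members were higher and 2, 1, 22, 24 and 9 lower in the same order of comparisons, with no count of members moved by more than 1.5 times.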
